A study of Mus musculus with 72 samples.

Results

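The 42 genes described here encode coagulation and complement proteins of the blood plasma. They were chosen by name, with earlier results of these data known, and their symbols were matched to the probes of a TempO-Seq liver data set. They account for 42 of 21400 symbols and for 76 of 30146 probes in the deposited table. The study asked about tertiary butyl alcohol (TBA), an industrial solvent alcohol, in female B6C3F1 mice, the first-generation cross of C57BL/6 females and C3H males. The mice were 9 to 11 weeks old and single-housed. They drank water with 0, 10, 20 or 40 mg/mL TBA for 14 d or 28 d, with 9 mice in each of the 8 groups, and 0 mg/mL was the control of each duration. Livers were fixed in formalin and embedded in paraffin, and sections were scraped from slides. TempO-Seq ligates a pair of short detector oligos on each target RNA and counts the ligated products, so the values are counts per probe.

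Most plasma coagulation and complement proteins are made by hepatocytes and secreted. Coagulation is a cascade of serine protease zymogens, several of which need vitamin K dependent carboxylation, and it ends with thrombin cutting fibrinogen to fibrin. Complement has a classical, a lectin and an alternative branch. They meet at the cleavage of C3 and C5, after which C6, C7, C8 and C9 assemble a pore, the membrane attack complex. Protease inhibitors of the serpin family and dedicated regulators hold both systems in check.

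Library depth was 7.77 to 12.7 M counts in 71 libraries. Replicate 5 at 40 mg/mL and 14 d held only 0.0108 M counts and was left out, so that group had 8 libraries. All 42 genes passed the filter on low counts, and 17050 probes of all genes were tested. Levels are CPM, counts relative to library size after scaling with TMM, a factor that corrects for differences in library composition. For each gene the probe with the highest mean count is given. The hepatocyte marker Alb was abundant, as the tissue label implies: it averaged 3665 ± 2123 CPM at 40 mg/mL and 6029 ± 662 CPM in controls at 14 d (SD, n = 8 and 9). Lists of 3 values below are the lowest, the median and the highest library of a group.

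After 14 d at 40 mg/mL, transcripts of the coagulation and complement genes were lower than in the controls of the same duration. Of 42 genes, 30 fell and 0 rose (edgeR quasi-likelihood test, Benjamini-Hochberg adjusted p under 0.05 over all tested probes). Among all tested probes 3.68% fell and 2.84% rose. All 42 log2 fold changes were negative, between -1.62 for C8b and -0.29 for Kng2, with a median of -0.90 against 0.06 over all tested probes; 39 were negative with total counts alone in place of TMM and 28 with the scaling factor as a covariate. With total counts alone the median of all probes shifted by 0.47 log2, 6129 probes rose and 293 fell, and 27 of the 42 genes fell. Of the 76 probes, 53 fell and all 76 had negative log2 fold changes. The summed level of the 42 genes was 10194, 17384 and 45656 CPM at 40 mg/mL, against 44445, 49047 and 57137 CPM in controls. Most dosed animals lay far below the controls, and the highest dosed animal lay inside the control range. In 11 genes (26.2%) every dosed library lay below every control library on the TMM scale, a separation found in 0.587% of all tested probes. These were Proc, F12, Serpind1, Serpinf2, Plg, Vtn, Mbl1, C8a, C8b, C8g and C9. Scaling factors were 0.978 to 1.58 in dosed libraries and 0.847 to 0.961 in controls, and a higher factor lowers the scaled level. Overlap was not examined with total counts alone, here or for the single genes below. The calls of F11, F13b, Serpinc1, Mbl2, Cfb, Cfi, C4bp, Hc and C6 did not hold for each choice of 1 library left out, and the count then lay between 22 (without dosed replicate 1, 7 or 8) and 37 (without dosed replicate 3).

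**Figure D1:**
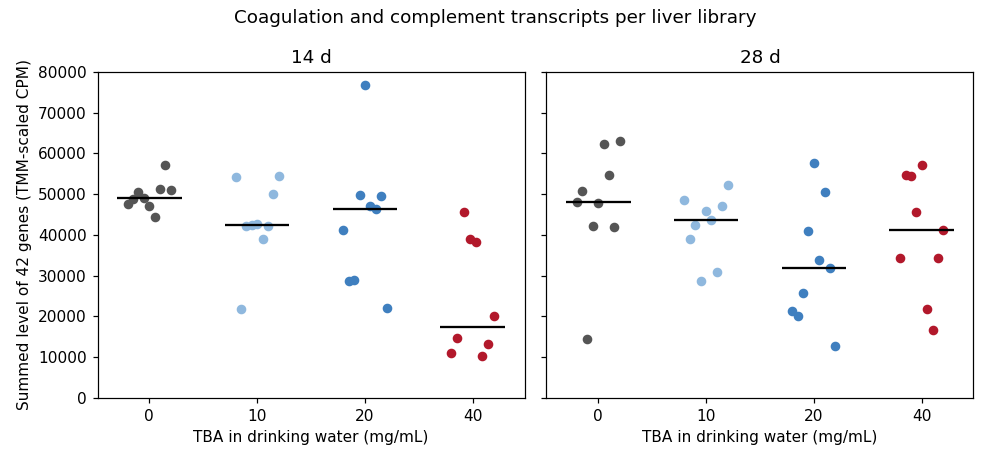
Summed level of the 42 genes (TMM-scaled CPM) in each library, by TBA dose (mg/mL), at 14 d on the left and 28 d on the right; points are libraries and lines are group medians. At 14 d the 40 mg/mL median was 17384 CPM, against 49047 CPM in controls, and at 28 d 1 control library lay at 14391 CPM.

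The fall was unequal among the dosed animals. Replicates 1, 2, 7, 8 and 9 at 40 mg/mL and 14 d had 39 to 41 of the 42 genes below all controls and summed levels of 10194 to 19982 CPM. Replicates 4 and 6 had 27 genes below all controls, and replicate 3 had 16, with summed levels of 38288 to 45656 CPM. The scaling factor moved with these levels: it was 1.12 to 1.58 in replicates 1, 2, 7, 8 and 9 and 0.978 to 1.02 in the other 3, against 0.847 to 0.961 in controls. The 20 most abundant probes took 8.18 to 17.6% of counts at 40 mg/mL and 20.2 to 23.2% in controls. With the scaling factor as a covariate 6 genes fell (Proc, F11, Vtn, C8a, C8b and C8g), against 1.17% of all probes. Without the 4 libraries of highest factor 1 gene fell (C8g), against 0.174% of all probes. Without the 5 of highest factor 0 fell by edgeR, against 0.0494% of all probes, with a median of -0.32 and 9 genes at an unadjusted p under 0.05. Those 5 were also the dosed libraries with the lowest summed levels, and only 3 dosed libraries remained. These counts therefore cannot separate the scaling factor from the level of the genes. The part of library composition in the fall was not tested.

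**Figure D2:**
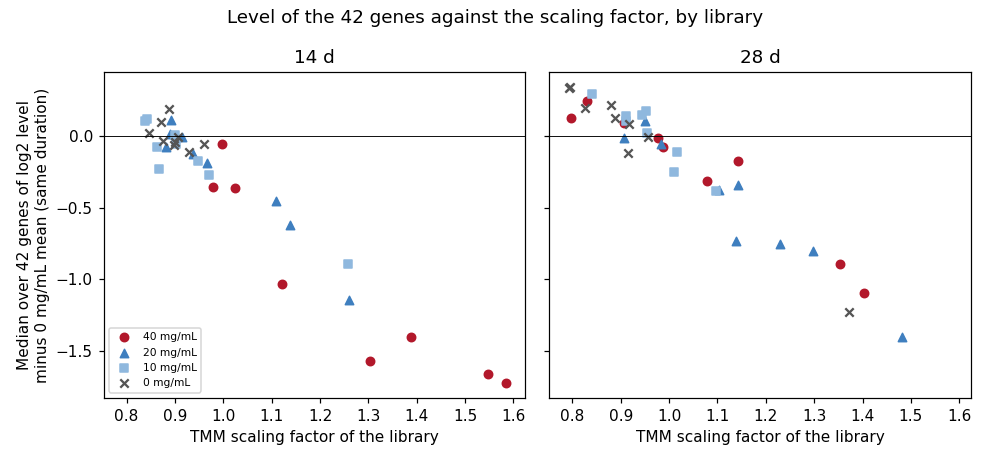
Median over the 42 genes of the log2 level minus the 0 mg/mL mean of the same duration (vertical axis), against the TMM scaling factor of the library (horizontal axis), for each library at 14 d (left) and 28 d (right). Libraries with high factors had low levels at every dose, including 1 control at 28 d with a factor of 1.37 and a median of -1.23.

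Fibrinogen is a hexamer of alpha, beta and gamma chains, encoded by Fga, Fgb and Fgg, which are neighbours on chromosome 3 in RefSeq's gene order. At the most counted probe of each, Fgg fell at 40 mg/mL and 14 d and Fga and Fgb did not pass the test. The level of Fgg was 943, 1489 and 5081 CPM at 40 mg/mL, against 3544, 4962 and 5606 CPM in controls (log2 fold change -1.18 ± 0.27 SE, adjusted p = 0.00378). All but 2 of 8 dosed animals lay below the controls. Fga had 539, 1396 and 6079 CPM at 40 mg/mL, against 5468, 6174 and 7330.1 CPM in controls (log2 fold change -1.21 ± 0.42 SE, adjusted p = 0.0684). Fgb had 349, 796 and 2919 CPM at 40 mg/mL, against 2532, 3233 and 4069 CPM in controls (log2 fold change -1.15 ± 0.41 SE, adjusted p = 0.0812). Their dosed libraries were widely spread, and other probes of Fga and Fgb fell, with log2 fold changes of -1.34 and -1.13 for Fga and -1.14 for Fgb.

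Among the vitamin K dependent proteins, 4 of 7 fell. F7 is the protease that starts coagulation with tissue factor, and its level was 46.9, 96.6 and 176 CPM at 40 mg/mL, against 124, 155 and 190.3 CPM in controls (log2 fold change -0.70 ± 0.17 SE, adjusted p = 0.00613). F10, the zymogen of the protease that activates prothrombin, had 140.2, 183 and 462 CPM at 40 mg/mL, against 428, 486 and 535 CPM in controls (log2 fold change -0.97 ± 0.22 SE, adjusted p = 0.0031). In both, 7 of 8 dosed animals lay below every control. Proc encodes protein C, which inactivates factors V and VIII, and its level was 69.8, 94.3 and 159.9 CPM at 40 mg/mL, against 188, 206 and 255 CPM in controls (log2 fold change -0.95 ± 0.16 SE, adjusted p = 8.18e-05). Proz, the cofactor of an inhibitor of factor X, had 113, 234 and 462 CPM at 40 mg/mL, against 392, 512 and 562 CPM in controls (log2 fold change -0.95 ± 0.23 SE, adjusted p = 0.00499). Protein C was below every control in all dosed animals and protein Z in all but 1. The second Proz probe did not pass the test (log2 fold change -0.29). Not past the threshold were F2, encoding prothrombin (-0.91 ± 0.35 on the log2 scale), F9, encoding factor IX (-0.74 ± 0.27), and Pros1, encoding the protein C cofactor protein S (-0.63 ± 0.31). Adjusted p was 0.11 for F2, 0.09 for F9 and 0.25 for Pros1, and a second probe of F2 fell (-0.80 on the log2 scale). F7, F10 and Proz lie next to one another on chromosome 8.

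All 4 of the other clotting factors fell. F5 encodes the cofactor of factor X and had 53.3, 63.1 and 116 CPM at 40 mg/mL, against 89.3, 112 and 159 CPM in controls (log2 fold change -0.64 ± 0.15 SE, adjusted p = 0.00559). F11, the zymogen that activates factor IX, had 19.8, 34.2 and 58.4 CPM at 40 mg/mL, against 47, 71.4 and 91.5 CPM in controls (log2 fold change -0.88 ± 0.28 SE, adjusted p = 0.0411). Dosed and control animals overlapped in both genes. F12, which starts the contact pathway, had 154, 253 and 391 CPM at 40 mg/mL, against 411, 459.9 and 526 CPM in controls (log2 fold change -0.82 ± 0.17 SE, adjusted p = 0.00127). F13b, the carrier subunit of the fibrin cross-linking factor XIII, had 49.7, 90.3 and 186 CPM at 40 mg/mL, against 152, 167 and 246 CPM in controls (log2 fold change -0.80 ± 0.23 SE, adjusted p = 0.019). F12 showed no overlap, and 1 dosed animal overlapped the controls in F13b. Of 3 further genes of the contact system, with F11 and F12 counted above, 1 fell. Klkb1, encoding plasma prekallikrein, had 9.88, 17.7 and 48.2 CPM at 40 mg/mL, against 40.3, 54.5 and 62.2 CPM in controls (log2 fold change -1.13 ± 0.26 SE, adjusted p = 0.00362), and its groups overlapped in 2 dosed animals. Kng1 and Kng2 encode kininogens, the source of bradykinin. Their log2 fold changes were -0.92 ± 0.34 (adjusted p = 0.0851) for Kng1 and -0.29 ± 0.14 (adjusted p = 0.244) for Kng2, the smallest of the 42.

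Of the serpin inhibitors 4 of 5 fell. Serpinf2, encoding the plasmin inhibitor antiplasmin, had 659.7, 1388 and 4560.0 CPM at 40 mg/mL, against 4575, 5284 and 6349 CPM in controls (log2 fold change -1.32 ± 0.33 SE, adjusted p = 0.00845). Serpind1, the thrombin inhibitor heparin cofactor II, had 95.9, 196 and 415 CPM at 40 mg/mL, against 436, 470.2 and 577 CPM in controls (log2 fold change -1.10 ± 0.21 SE, adjusted p = 0.000416). Neither overlapped the controls. Serpinc1, encoding antithrombin, had 730.3, 1432 and 3403 CPM at 40 mg/mL, against 2827, 3451 and 4164 CPM in controls (log2 fold change -0.92 ± 0.25 SE, adjusted p = 0.0126). Serping1, the inhibitor of C1 and of kallikrein, had 76.6, 113 and 235 CPM at 40 mg/mL, against 189.8, 239.6 and 289.8 CPM in controls (log2 fold change -0.86 ± 0.17 SE, adjusted p = 0.000726). In these genes 6 and 7 of 8 dosed animals lay below all controls. Serpina10, the protein Z dependent inhibitor, was not past the threshold (-0.51 ± 0.21 on the log2 scale, adjusted p = 0.153).

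Fibrinolysis and matrix genes gave 3 of 4 falls. Plg encodes plasminogen, the zymogen of the fibrin-cleaving protease, and had 892, 1846 and 4042 CPM at 40 mg/mL, against 4075, 4308 and 5279 CPM in controls (log2 fold change -1.09 ± 0.24 SE, adjusted p = 0.00182). Vtn, the adhesive protein vitronectin, which also binds the complement pore, had 501, 641 and 1256 CPM at 40 mg/mL, against 1325, 1501 and 2073 CPM in controls (log2 fold change -1.03 ± 0.17 SE, adjusted p = 5.25e-05). On the TMM scale both separated dosed from control animals completely. Hrg, encoding the histidine-rich glycoprotein, had 150.3, 272 and 460.3 CPM at 40 mg/mL, against 436, 513 and 669 CPM in controls (log2 fold change -0.89 ± 0.20 SE, adjusted p = 0.00271), with 7 of 8 dosed animals below the controls. Cpb2, which encodes an inhibitor of fibrinolysis, was -0.71 ± 0.24 on the log2 scale (adjusted p = 0.0563).

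In the lectin pathway 2 of 4 fell. Mbl1 and Mbl2 encode mannose-binding lectins, which recognise sugars on microbes. Mbl1 had 275, 350.4 and 658 CPM at 40 mg/mL, against 689, 855 and 932 CPM in controls (log2 fold change -0.93 ± 0.22 SE, adjusted p = 0.00401), with no overlap. Mbl2 had 94.1, 132 and 268 CPM at 40 mg/mL, against 212, 232 and 278 CPM in controls (log2 fold change -0.51 ± 0.17 SE, adjusted p = 0.0484), and its groups overlapped. The associated proteases were not past the threshold: Masp1 was -0.58 ± 0.19 (adjusted p = 0.0507) and Masp2 -0.32 ± 0.11 (adjusted p = 0.0566) on the log2 scale.

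The convertase components gave 3 of 4 falls. C3, on which all branches converge, had 1047, 2224 and 4036 CPM at 40 mg/mL, against 3972, 4639 and 5424 CPM in controls (log2 fold change -0.95 ± 0.24 SE, adjusted p = 0.00849). C2 had 69.9, 104 and 150.2 CPM at 40 mg/mL, against 126, 161 and 182 CPM in controls (log2 fold change -0.67 ± 0.16 SE, adjusted p = 0.00398). In each gene 7 of 8 dosed animals lay below the controls. Cfb, the factor B of the alternative branch, had 353, 601 and 2079 CPM at 40 mg/mL, against 1498, 1807 and 2265 CPM in controls (log2 fold change -0.91 ± 0.29 SE, adjusted p = 0.0423), with 5 of 8 dosed animals below the controls. C4b was not past the threshold (-0.42 ± 0.17 on the log2 scale, adjusted p = 0.129). The other C2 probes did not pass the test (log2 fold changes -0.99 and -0.46). Both regulators fell. Cfi, the protease that degrades C3b and C4b, had 78.4, 119 and 331 CPM at 40 mg/mL, against 263, 296 and 368 CPM in controls (log2 fold change -0.86 ± 0.26 SE, adjusted p = 0.0279). C4bp, its cofactor for C4b, had 20.4, 33.7 and 68.6 CPM at 40 mg/mL, against 46.9, 63.3 and 84.9 CPM in controls (log2 fold change -0.63 ± 0.19 SE, adjusted p = 0.0324). Groups overlapped in both, and the second C4bp probe did not pass the test (-0.72).

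All 6 genes of the terminal complex among the 42 fell, with a median log2 fold change of -1.16. C8b encodes the beta chain of C8 and had 35.5, 92.4 and 167 CPM at 40 mg/mL, against 237, 292 and 345 CPM in controls (log2 fold change -1.62 ± 0.30 SE, adjusted p = 0.000322). C8a, its alpha chain, had 57.7, 130.0 and 268 CPM at 40 mg/mL, against 344, 391 and 513 CPM in controls (log2 fold change -1.52 ± 0.26 SE, adjusted p = 0.000109). C9, the pore-forming subunit, had 174, 254 and 529 CPM at 40 mg/mL, against 684, 756 and 977 CPM in controls (log2 fold change -1.35 ± 0.25 SE, adjusted p = 0.000383). These levels were 2.54 to 3.06-fold lower, and no dosed animal reached the lowest control. C8g, the gamma chain, had 159, 198 and 249 CPM at 40 mg/mL, against 295, 360.1 and 649 CPM in controls (log2 fold change -0.98 ± 0.16 SE, adjusted p = 3.09e-05), again with no overlap. Hc, the mouse gene of C5, had 103, 179.9 and 409.6 CPM at 40 mg/mL, against 306, 378 and 454 CPM in controls (log2 fold change -0.74 ± 0.24 SE, adjusted p = 0.0444). C6 had 9.04, 16.3 and 39.3 CPM at 40 mg/mL, against 19.9, 33.1 and 68.9 CPM in controls (log2 fold change -0.86 ± 0.26 SE, adjusted p = 0.0275). Hc and C6 overlapped the controls. A second probe of C8a (-1.58 on the log2 scale) and 1 of the other C9 probes (-1.09) did not pass the test. C7, a pore component that is not among the 42 genes, had few counts, averaging 0.168 ± 0.276 CPM at 40 mg/mL and 0.694 ± 0.825 CPM in controls (SD, n = 8 and 9), and did not pass the test (log2 fold change -2.01 ± 0.91 SE, edgeR adjusted p = 0.202). C8b and C8a are adjacent on chromosome 4.

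**Figure D3:**
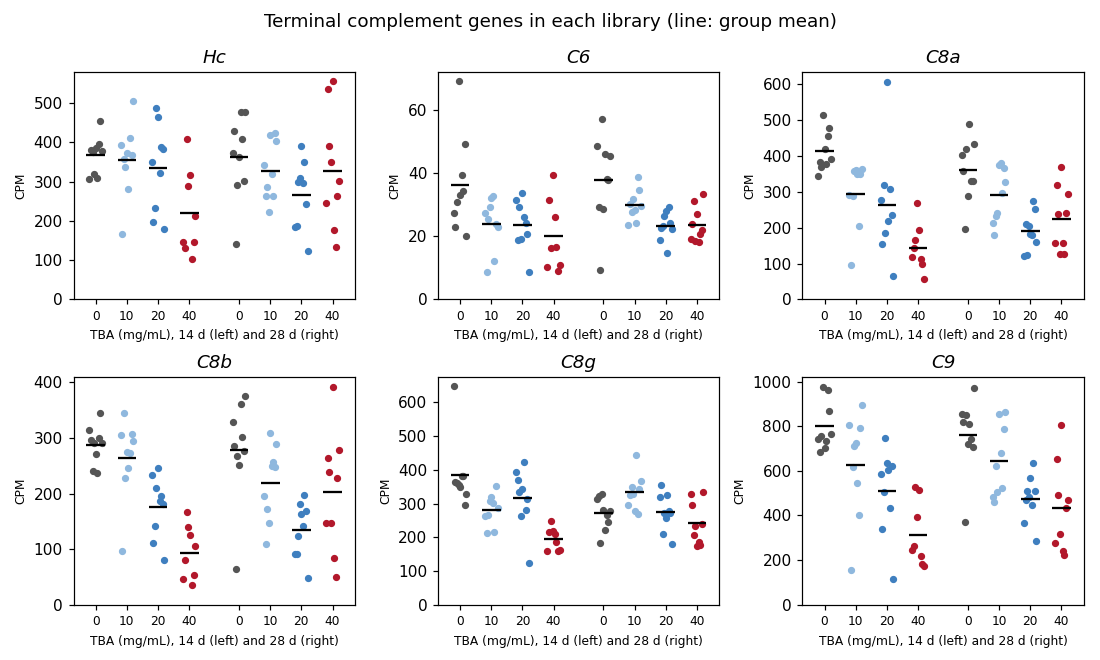
Levels (TMM-scaled CPM) of the 6 terminal complement genes in each library, by TBA dose in mg/mL, 14 d left and 28 d right in each panel; lines are group means. At 14 d C8b averaged 93.9 CPM at 40 mg/mL, against 287 CPM in controls.

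Promoter windows of 32 of the 42 genes were found in RefSeq (build GRCm38.p6; 250 bases before to 50 after a transcription start). They were searched on both strands for letters taken as motifs of 3 factors of hepatocytes (HNF1, C/EBP and HNF4) and of the TATA box. HNF1 (GTTAAT, any base, then ATT) was in 3 of 32 (9.38%), against 0.47% of 27025 genes. C/EBP (TTGCNNAA) was in 11 of 32 (34.4%), against 12.2%. HNF4 (CAAAGTCCA) was in 0 of 32, against 0.555%, and the TATA box (TATAAA) was in 5 of 32 (15.6%), against 15.7%. A match is a description of letters and no binding was measured. The windows of the 3 genes with the strongest complement falls and of the 3 with an HNF1 match are given, with matched letters in capitals. They were chosen after the matches were seen, and no matches overlap in them.
C8b (chr4:104766067-104766366, plus strand): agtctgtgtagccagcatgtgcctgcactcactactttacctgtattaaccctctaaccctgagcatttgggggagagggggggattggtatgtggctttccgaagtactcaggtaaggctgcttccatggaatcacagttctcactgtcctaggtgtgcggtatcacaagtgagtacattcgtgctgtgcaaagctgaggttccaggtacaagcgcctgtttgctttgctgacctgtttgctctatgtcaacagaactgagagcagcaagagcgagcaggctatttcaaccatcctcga
C8a (chr4:104876349-104876648, minus strand): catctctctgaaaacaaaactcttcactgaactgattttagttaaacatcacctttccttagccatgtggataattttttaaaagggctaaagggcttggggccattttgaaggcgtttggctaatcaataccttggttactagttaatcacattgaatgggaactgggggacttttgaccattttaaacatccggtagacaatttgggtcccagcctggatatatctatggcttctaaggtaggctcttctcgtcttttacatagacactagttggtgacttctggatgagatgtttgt
C9 (chr15:6445096-6445395, plus strand): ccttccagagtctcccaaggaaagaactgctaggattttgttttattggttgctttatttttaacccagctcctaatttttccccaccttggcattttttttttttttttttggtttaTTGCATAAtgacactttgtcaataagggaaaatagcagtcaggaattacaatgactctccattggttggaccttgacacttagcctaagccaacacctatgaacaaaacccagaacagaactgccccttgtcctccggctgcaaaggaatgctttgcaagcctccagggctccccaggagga
Hc (chr2:35061363-35061662, minus strand): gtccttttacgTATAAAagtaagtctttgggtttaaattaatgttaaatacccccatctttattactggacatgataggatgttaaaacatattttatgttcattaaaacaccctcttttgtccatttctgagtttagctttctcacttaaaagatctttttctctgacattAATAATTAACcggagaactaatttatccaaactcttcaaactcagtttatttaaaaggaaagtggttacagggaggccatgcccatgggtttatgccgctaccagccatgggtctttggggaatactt
F13b (chr1:139501457-139501756, plus strand): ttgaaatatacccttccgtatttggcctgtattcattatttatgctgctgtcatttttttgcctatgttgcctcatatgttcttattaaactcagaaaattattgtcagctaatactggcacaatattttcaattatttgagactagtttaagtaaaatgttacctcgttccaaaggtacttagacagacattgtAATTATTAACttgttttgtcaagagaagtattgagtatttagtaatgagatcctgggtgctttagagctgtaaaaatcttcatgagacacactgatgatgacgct
C4bp (chr1:130661569-130661868, minus strand): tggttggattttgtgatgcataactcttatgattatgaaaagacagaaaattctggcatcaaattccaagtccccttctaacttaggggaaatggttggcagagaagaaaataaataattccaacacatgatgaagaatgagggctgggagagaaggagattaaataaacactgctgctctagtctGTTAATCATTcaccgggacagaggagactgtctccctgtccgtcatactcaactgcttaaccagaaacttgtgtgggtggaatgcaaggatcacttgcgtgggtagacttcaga
C8a and C8b held none of the 4 motifs in this window, and C9 held 1 C/EBP match. Hc held an HNF1 match at -78 and a match to the letters TATAAA at -239, counted in bases from the transcription start.

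The plot of effects by gene shows these values beside those at 28 d.

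**Figure D4:**
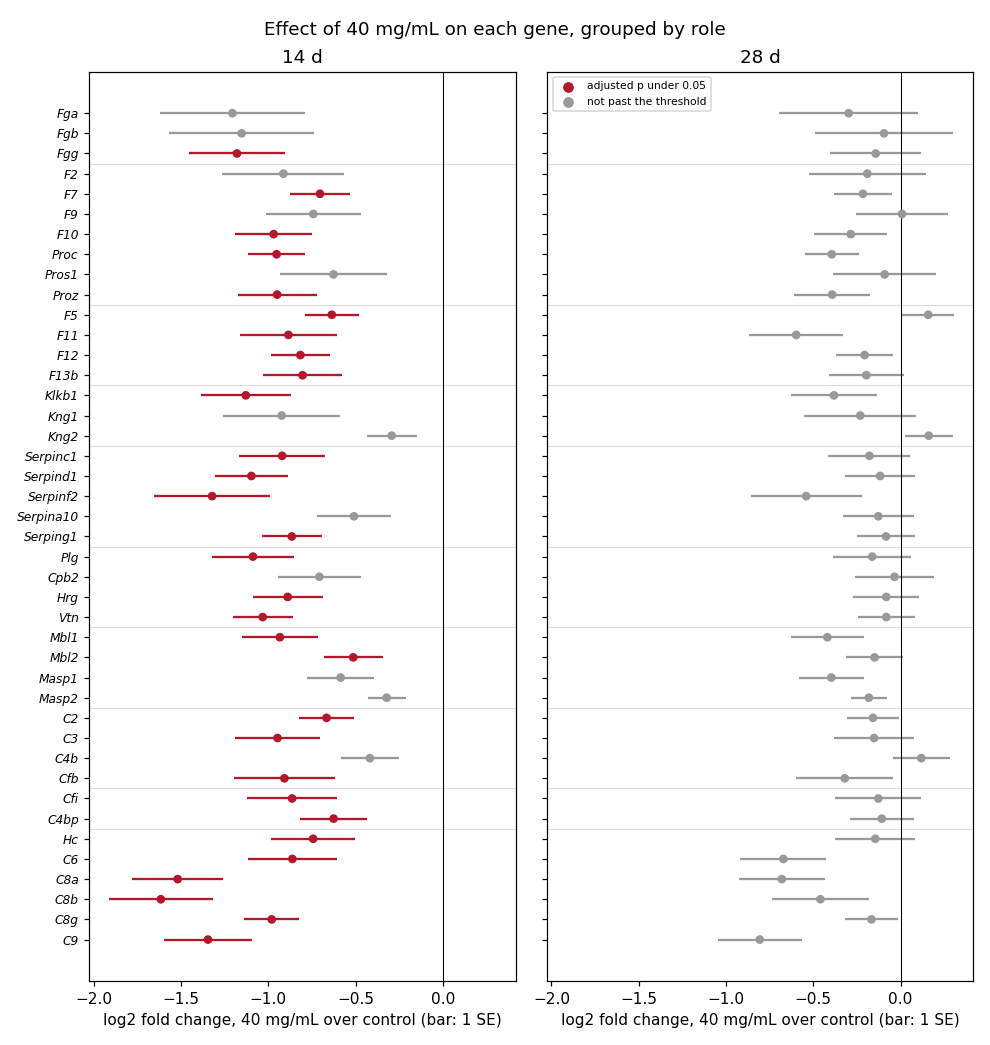
log2 fold change of 40 mg/mL over control for each of the 42 genes (rows, grouped by role) with 1 SE, at 14 d (left) and 28 d (right); red marks an adjusted p under 0.05. All 42 points lie below 0 at 14 d, where 30 are red (with total counts alone 39 lie below 0), and 38 lie below 0 at 28 d, where none is red (23 lie below 0 with total counts alone and 14 with the scaling factor as a covariate).

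At 14 d a linear trend over the doses was tested, which a fall at 40 mg/mL alone can also pass. The median log2 fold changes at 10, 20 and 40 mg/mL were -0.16, -0.19 and -0.90. The linear trend over 0, 10, 20 and 40 mg/mL passed the test as a fall for 33 of 42 genes and as a rise for 0, against 4.34% and 3.65% of all tested probes. All 42 slopes were negative, with a median of -0.22 log2 per 10 mg/mL; 39 were negative with total counts alone, 28 with the scaling factor as a covariate and 37 without the 5 dosed libraries of highest factor. With total counts alone 324 of all probes fell and 6971 rose, against 740 and 622 with TMM. Neither lower dose gave calls of its own. At 10 mg/mL 0 genes were called by edgeR, DESeq2 and limma, with 3 at an unadjusted p under 0.05 by edgeR and a median of -0.16. Of all probes 0% were called by edgeR, while 12 rose by DESeq2 and 4 by limma. At 20 mg/mL 0 were called by edgeR, DESeq2 and limma, with 7 at an unadjusted p under 0.05 by edgeR and a median of -0.19. Of all probes 0.00587% were lower and 0.0293% higher by edgeR, and 0.0352% were lower by DESeq2 and by limma. With the covariate the 20 mg/mL median was 0.06. C8b averaged 287 ± 34.2 CPM at 0 mg/mL, 263 ± 71.3 CPM at 10 mg/mL, 176 ± 55.4 CPM at 20 mg/mL and 93.9 ± 47.9 CPM at 40 mg/mL (SD, n = 9, 9, 9 and 8). C9 averaged 799 ± 109.6 CPM at 0 mg/mL, 628 ± 232 CPM at 10 mg/mL, 509.8 ± 190.1 CPM at 20 mg/mL and 315 ± 145 CPM at 40 mg/mL. Vtn averaged 1550.0 ± 222 CPM at 0 mg/mL, 1272 ± 97.2 CPM at 10 mg/mL, 1327 ± 363 CPM at 20 mg/mL and 758 ± 292 CPM at 40 mg/mL. C8b and C9 were lower at each successive dose, within wide spreads, and Vtn at 10 and 20 mg/mL lay close together. These genes were chosen after their values were seen. The trend passed the test as a fall for 4 genes with the scaling factor as a covariate, for 1 without the 4 libraries of highest factor and for 0 without the 5. Of all probes 0.897, 0.163 and 0.0384% fell in these settings, in that order.

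After 28 d no gene passed the edgeR test at any dose against the 28 d controls. The dose trend gave 0 calls by edgeR, with 8 genes at an unadjusted p under 0.05, against 0.0528% of all probes lower and 0.0762% higher. DESeq2 called 1 gene lower, against 0.264% of all probes, and limma 5 lower, against 1.2%. The median was -0.06 log2 per 10 mg/mL, -0.01 with total counts alone and 0.03 with the scaling factor as a covariate. At 10 mg/mL 0 were called by edgeR, DESeq2 and limma, with 2 at an unadjusted p under 0.05 by edgeR. Of all probes 0% were called by edgeR, while limma called 8 lower and 6 higher. The median was -0.06 (0.05 with total counts alone and 0.15 with the covariate). At 40 mg/mL 38 of 42 log2 fold changes were negative with a median of -0.17. By edgeR 0 genes were called and 7 had an unadjusted p under 0.05, against 0% of all probes lower and 0.00587% higher. DESeq2 called 0 genes, against 0.0645% of all probes lower, and limma 3 lower, against 0.669%. With total counts alone 23 of the 42 were negative, with a median of -0.0083, and with the covariate 14 were, with a median of 0.14. C9 had 221, 435 and 806 CPM at 40 mg/mL, against 369, 808 and 970.1 CPM in controls (log2 fold change -0.81 ± 0.24 SE, adjusted p = 0.335). C8a had 125, 237 and 370.0 CPM at 40 mg/mL, against 197, 358 and 489 CPM in controls (log2 fold change -0.68 ± 0.25 SE, adjusted p = 0.532). C6 had 18, 21.9 and 33.2 CPM at 40 mg/mL, against 9.47, 37.9 and 56.9 CPM in controls (log2 fold change -0.67 ± 0.25 SE, adjusted p = 0.543). These 3 had the lowest log2 values, and their groups overlapped. Vtn, by contrast, had 664, 1219 and 1486 CPM at 40 mg/mL, against 588, 1324 and 1473 CPM in controls (log2 fold change -0.08 ± 0.16 SE, adjusted p = 0.981). F5 and Kng2 were among the 4 genes with positive values, at 0.16 ± 0.15 and 0.16 ± 0.14. C8b averaged 279 ± 91.2 CPM at 0 mg/mL, 219 ± 67.1 CPM at 10 mg/mL, 134 ± 49.3 CPM at 20 mg/mL and 203 ± 106 CPM at 40 mg/mL at 28 d (SD, n = 9 each), and C9 averaged 760.4 ± 168 CPM at 0 mg/mL, 643 ± 162 CPM at 10 mg/mL, 475 ± 104 CPM at 20 mg/mL and 435 ± 197 CPM at 40 mg/mL. C8b was lowest at 20 mg/mL.

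At 20 mg/mL and 28 d the median log2 fold change was -0.51, with 22 genes at an unadjusted p under 0.05 and 0 called by edgeR, against 0.0938% of all probes lower and 0.0645% higher. DESeq2 called 3 lower, against 0.563% of all probes, and limma 10, against 1.76%. The median was -0.20 with total counts alone, where 18 of all probes fell and 138 rose (16 and 11 with TMM), and 0.12 with the scaling factor as a covariate, where 10 of the 42 values were negative. C8b had 48.3, 142 and 197 CPM at 20 mg/mL, against 63.7, 285 and 376 CPM in controls (log2 fold change -1.06 ± 0.28 SE, adjusted p = 0.074). C8a had 120.2, 184 and 274 CPM at 20 mg/mL, against 197, 358 and 489 CPM in controls (log2 fold change -0.93 ± 0.25 SE, adjusted p = 0.074). A single undosed 28 d control, replicate 3, bears on these values. It had a scaling factor of 1.37, a summed level of 14391 CPM against 42028 to 63016 CPM in the other 8 controls, and 38 genes below all other controls. Without it 15 genes fell at 20 mg/mL and 28 d, against 2.49% of all probes, and 0 at 40 mg/mL, a count made after seeing the data. Those 15 were F9, F10, Proc, Pros1, Proz, F12, F13b, Klkb1, Serpinf2, Mbl1, C4bp, C6, C8a, C8b and C9. The median log2 fold change at 40 mg/mL and 28 d was then -0.27, against -0.17 with it.

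The 40 mg/mL effect was less negative at 28 d than at 14 d for all 42 genes, with a median difference of 0.68 log2; the difference turned negative for 4 genes with total counts alone, for 5 with the scaling factor as a covariate, for 5 without the 4 libraries of highest factor and for 20 without the 5. By edgeR 0 of the 42 differences passed the test and 22 had an unadjusted p under 0.05, against 0% of all probes called. Limma called 0 genes and 0 of all probes. DESeq2 called 4 genes higher, against 21 of all 17050 probes higher and 1 lower. The 4 by DESeq2 were F5, Serpind1, Vtn and C8g. Vtn had the smallest p, with a difference of 0.95 ± 0.23 (SE, adjusted p = 0.222). The median difference was 0.25 with the covariate, 0.19 without the 4 libraries and 0.01 without the 5. Without the low 28 d control it was 0.56, with 0 genes called and 16 at an unadjusted p under 0.05 by edgeR. None of the 42 genes passed the test between 28 d controls and 14 d controls by edgeR, DESeq2 or limma. By edgeR 4 had an unadjusted p under 0.05, with a median of -0.08, and 0.02 without the low 28 d control. Of all probes 0% were called by edgeR and DESeq2, and limma called 2 higher.

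Other genes of the same pathways were given from lists. At 40 mg/mL and 14 d, 2 of 16 further coagulation and fibrinolysis genes fell (Lrp1, a clearance receptor, and Lman1, a cargo receptor for factors V and VIII), and 0 rose. Of 7 genes of the vitamin K cycle 2 fell: Ggcx, the carboxylase, at -0.62 ± 0.18, and Cyp4f14 at -1.02 ± 0.23. Of 11 further complement components 1 fell (C1rl), and of 12 regulators and receptors 4 fell, among them Clu at -0.98 ± 0.25 and Cr1l at -0.65 ± 0.17. Interleukin 6 and acute phase genes gave 4 of 22 lower (among them Hpx at -1.08 ± 0.26, Apcs at -1.01 ± 0.27 and Lbp at -0.84 ± 0.26). Of 15 hepatocyte transcription factors 1 fell, Foxa3, at -0.83 ± 0.21. Among all tested probes 3.68% fell. Each list also held positive values, none of them called. The highest were 0.41, 0.68, 0.17, 0.51, 1.72 and 0.43, in the order of the lists above. Values are log2 fold changes with SE.

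Markers of the cell types that a liver section holds were read in the same fit, at 40 mg/mL and 14 d. Of 8 hepatocyte markers 5 fell (Alb, Ttr, Apoa1, Serpina1a and Ahsg), against 3.68% of all tested probes. The other 3 (Apoc3, Cps1 and Tat) did not pass the test, and the highest log2 fold change among them was 0.67. The summed level of the 8 was 9872 to 40820 CPM at 40 mg/mL, against 38291 to 55484 CPM in controls. Apoa1 weighed most in this sum, with a mean of 20776 CPM over all libraries used. None of 9 Kupffer cell markers passed the test, with summed levels of 51.6 to 217 CPM at 40 mg/mL and 133 to 190.3 CPM in controls. Of 9 sinusoidal endothelial markers 1 fell, and of 10 stellate cell markers 2 fell. Markers of cholangiocytes (3 tested), lymphocytes (5), neutrophils and monocytes (2), erythrocytes (2) and platelets (2) gave 0 calls. Among those below the count filter, mean counts were 0.225 for Epcam, 0.944 for S100a8, 0.437 for Hba-a1 and 0.0563 for Gp9. The highest tested marker of each list averaged 17.2 (Spp1), 2.64 (Nkg7), 1.18 (Ccr2), 4.12 (Alas2) and 10.1 CPM (Itgb3). In the 14 d dose trend 1 erythrocyte marker rose, Hbb-bt, against 3.65% of all probes, and the other did not pass the test. The part of these markers in the fall of the 42 genes was not tested. In bulk tissue, fewer hepatocytes and less RNA per hepatocyte cannot be told apart.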

How the data were processed

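RNA from scraped liver sections of 72 female mice was assayed by TempO-Seq. The authors deposited 1 table of whole-number counts per probe. Per the submitters' processing notes, bcl2fastq 2.20 and Bowtie were used; the Bowtie version, genome build and counting tool are not given in the sources used here. No batch, plate or pairing of animals is in the labels, and replicates are numbered in listing order. With 9 mice and 9 libraries per group, each library was taken as 1 mouse.

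Libraries under 100000 counts were left out, which removed 1. Counts were filtered with filterByExpr (17050 of 30146 probes kept) and fitted with edgeR 4.0.16 (R 4.3.3), using TMM scaling and a robust quasi-likelihood model with 1 mean per group over 71 libraries, and Benjamini-Hochberg adjustment at 0.05 over all tested probes. The script was tested on simulated data. Alternatives used DESeq2 1.42.0 and limma 3.58.1. No pair of libraries within a group held identical values, and the smallest chi-square per degree of freedom was 6.62.

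The genes and the lists were chosen with earlier results of these data known. Genes called at 40 mg/mL, and the highest-count one of a role with none, are given with values. Fga and Fgb, not called at the probes given, are shown beside Fgg. The genes given in all 8 groups were chosen after their values were seen. A gene is read at its probe with the highest mean count. Close paralogs such as Kng1 and Kng2 may share reads.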

Additional observations from a re-analysis of the deposited data

Results flagged for a closer look

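Single libraries stood far from the others of their group by Dixon's test, which compares the gap at an end with the range of the group and is passed by about 1 in 20 groups by chance. Of 336 tests of 42 genes in 8 groups, 68 were past the limit, 61 of them at the low end. The undosed 28 d control replicate 3 accounted for 32, the 10 mg/mL 14 d replicate 2 for 15 and the 20 mg/mL 14 d replicate 9 for 9.

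The 28 d control replicate 3 was low in Fgg (1561 CPM), Proc (109 CPM), Plg (1368 CPM), Vtn (588 CPM), C3 (1798 CPM), Hc (142 CPM), C6 (9.47 CPM), C8b (63.7 CPM), C9 (369 CPM) and the summed level of the 42 genes (14391 CPM). The 10 mg/mL 14 d replicate 2 was low in Proc (112 CPM), Plg (2469.6 CPM), C8a (96.7 CPM), C8b (97 CPM), C9 (154 CPM) and the summed level of the 42 genes (21731 CPM). The 20 mg/mL 14 d replicate 9 was low in C6 (8.55 CPM), C8g (123 CPM) and C9 (115 CPM). The 20 mg/mL 28 d replicate 9 was low in F7 (57.3 CPM) and Proc (83.7 CPM), and the 40 mg/mL 28 d replicate 7 in Fgg (1924 CPM). For the 3 libraries with the most low results only a part of the genes past the limit is named.

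The 7 results at the high end were spread over 5 libraries. The 20 mg/mL 14 d replicate 5 was high in Fgg (15346 CPM), Serpina10 (1049.7 CPM) and Serping1 (431 CPM), the 20 mg/mL 28 d replicate 2 in F11 (98.5 CPM) and the 40 mg/mL 14 d replicate 3 in Kng2 (347 CPM). Among the 14 d controls, replicate 8 was high in F13b (246 CPM), replicate 1 was high in C8g (649 CPM) and low in Cpb2 (148 CPM), and replicate 4 was low in C2 (126 CPM). The causes were not tested.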

How the results depend on the processing

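No paired analysis was possible because the labels pair no animals across groups. The 30 genes lower at 40 mg/mL and 14 d became 24 to 36 with DESeq2, limma, other scaling, other filters, summed probes, the failed library kept or only the groups compared. In these settings 1.72 to 5.77% of all probes fell. With total counts alone 27 of the 42 genes fell, and the median of all probes shifted by 0.47 log2. With the log2 scaling factor in the model the count was 6, against 1.17% of all probes. With dosed replicates 1 and 7 left out it was 11, against 0.93%. In alternatives added after seeing the data it was 1 without the 4 dosed libraries of highest factor and 0 without the 5, which also had the lowest summed levels. Of all probes 0.174 and 0.0494% fell without the 4 and the 5. The trend at 14 d (33) gave 4, 10, 1 and 0 under these 4 settings, against 0.897, 0.803, 0.163 and 0.0384% of all probes. Leaving out 1 library gave 22 to 37 genes at 40 mg/mL and 14 d, 0 at 28 d and 0 for the difference between durations, with 0 higher in each. In 21 of 30 genes the call held whichever library was left out, and in 0 under every alternative. The other 9 lost it: F11 (adjusted p up to 0.0966, without dosed replicate 9), F13b (0.0716), Serpinc1 (0.0529), Mbl2 (0.17) and Cfi (0.0964) without dosed replicate 1, Cfb (0.131) and Hc (0.14) without dosed replicate 7, C4bp (0.106) without dosed replicate 8, and C6 (0.0975) without control replicate 4.

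At 20 mg/mL and 28 d, 0 calls became 3 with DESeq2, 10 with limma, 1 with total counts, 1 with the groups alone, 1 and 3 without the 4 and the 5 libraries, and 15 without the low control. The shares of all probes that fell were 0.563, 1.76, 0.106, 0.188, 0.354, 0.45 and 2.49% in these settings, in that order. At 40 mg/mL and 28 d limma gave 3 lower, against 0.669% of all probes, and the covariate 1 higher, against 59 of all probes. The 28 d trend gave 1 with DESeq2, 5 with limma, 1 with total counts, 1 with the groups alone, and 2 higher with the covariate. Of all probes 0.264% fell with DESeq2, 1.2% with limma, 0.0293% with total counts and 0.222% with the groups alone. With the covariate 140 of all probes rose. DESeq2 gave 4 higher for the difference between durations, against 21 of all probes higher.

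Log2 values that turned positive at 40 mg/mL and 14 d with total counts were Kng2 0.14, Masp2 0.17 and C4b 0.0785. With the covariate they were Fga 0.016, Fgb 0.12, F2 0.23, F9 0.20, Pros1 0.45, F13b 0.0259, Kng1 0.21, Serpina10 0.19, Cpb2 0.14, Mbl2 0.0015, Masp1 0.13, Cfb 0.0975, Cfi 0.0524 and Hc 0.17. Without the 5 libraries they were Pros1 0.19, Kng1 0.0016, Mbl2 0.0861 and C4bp 0.0075. At 28 d the count of negative values among the 42 was 38, and 23 with total counts and 14 with the covariate; of the 13 genes followed there, those that turned were Fgg 0.0637, Vtn 0.10 and C8g 0.0223 with total counts and Fgg 0.25, Plg 0.21, Vtn 0.14, C3 0.22 and Hc 0.21 with the covariate. The cause was not tested.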
